A study of Mus musculus with 8 samples.

Results

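SKP2 acts as the substrate-binding subunit of an SCF ubiquitin ligase, and the genes described here are those of its partners and of proteins that it is reported to recognise. They were taken by symbol from a list of 10 genes and comprise the CDK inhibitors Cdkn1a, Cdkn1b and Cdkn1c, the SCF partners Cks1b, Cul1 and Rbx1, the cyclins Ccnd1 and Ccne1, and the transcription factors E2f1 and Myc. All 10 were found among the 36333 genes of the deposited table, and all 10 passed the filter on low values. The data are poly(A) RNA-sequencing of ventral prostate lobes from 4 hSKP2-KI and 4 WT mice, one library per mouse. All mice were 12 months old males on the FVB/N background. The hSKP2-KI allele carries a P2A-linked human SKP2 coding sequence in exon 1 of the mouse probasin gene Pbsn, so that the androgen-driven probasin promoter of the prostate epithelium controls it. Carriers were bred from heterozygous females and wild-type males. The founder line of the sequenced mice is not given in the sources used here, and WT mice carry no insert.

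An SCF ligase is built on the scaffold cullin 1, which holds the RING protein RBX1 at one end and the adaptor SKP1 at the other. SKP1 binds an F-box protein such as SKP2, and the small protein CKS1, the product of Cks1b, completes the surface of SKP2 that recognises phosphorylated p27, the product of Cdkn1b. Ubiquitinated p27 is degraded by the proteasome, which releases the CDK2 complexes that carry cells from G1 into S phase. SKP2 therefore acts on its substrates as proteins, and RNA-sequencing reports only the level of their transcripts. Binding of p27 requires phosphate on the threonine of codon 187. The coding sequence around that codon is shown because it is the point at which the substrate meets the ligase. It lies in exon 2 of the 3 exons of a Cdkn1b transcript of GENCODE, within the coding sequence, on the plus strand of GRCm38 at chr6:134922024-134922056. Codon 187 is in capitals and 5 codons are shown on each side.
Cdkn1b codon 187: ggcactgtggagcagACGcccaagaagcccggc

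The knock-in was seen in every mouse. The level of Skp2 in TPM (the length-corrected share of a gene in its library) was 43.3, 51.1, 37.3 and 60.6 in hSKP2-KI replicates 1 to 4 and 2.01, 1.05, 1.67 and 2.27 in WT replicates 1 to 4. All hSKP2-KI mice were far above all WT mice, and the log2 fold change was 4.16 (adjusted p = 5.09e-07). How reads of the human sequence were assigned to the mouse gene is not given in the sources used here, so human and mouse transcripts cannot be told apart in this value. Pbsn, the gene that received the insert, was lower, at 93.0 to 174 TPM against 3980 to 9232 TPM. Fold changes here and below are differences of log2(TPM + 1), hSKP2-KI minus WT, fitted with limma across the 13080 genes that reached 1 TPM in 4 or more mice. P-values were adjusted over all these genes (Benjamini-Hochberg). Because 1 is added, the ratio of TPM of a scarce gene is larger than its fold change.

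Cul1, Rbx1 and Cks1b, the partners that SKP2 works with, had fold changes close to the median of all genes. By limma none was called, and 2 of the 3 had an unadjusted p under 0.05 with the TPM as deposited and 0 after scaling. Cul1 (chromosome 6, 47453732 to 47526144, GRCm38.p6), which encodes the scaffold, had a TPM of 34.0, 36.4, 37.7 and 37.3 in hSKP2-KI mice and 26.3, 33.9, 26.9 and 33.9 in WT mice. The lowest hSKP2-KI value lay just above the highest WT value. Rbx1 (chromosome 15, 81466316 to 81476369), which encodes the RING subunit that recruits the ubiquitin-conjugating enzyme, had a TPM of 75.4, 69.9, 67.0 and 67.1 against 64.2, 60.4, 51.0 and 61.9, again without overlap. Cks1b (chromosome 3, 89415472 to 89418291) had a TPM of 40.5, 40.7, 30.9 and 34.1 against 32.1, 37.3, 25.0 and 31.6, and its groups overlapped. Their log2 fold changes were 0.27 (standard error 0.10, adjusted p = 0.0598) for Cul1, 0.23 (standard error 0.09, adjusted p = 0.0554) for Rbx1 and 0.21 (standard error 0.13, adjusted p = 0.196) for Cks1b, against a threshold of 0.05. Over all tested genes the median log2 fold change was 0.23.

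This general shift bears on every gene of the group. Sbp, Spink1 and Sbpl, the most abundant secretory genes of the ventral lobe, took 40.4% to 45.8% of the TPM in WT mice and 32.1% to 34.3% in hSKP2-KI mice, and TPM sum to the same total in every library. With the 20 most abundant genes left out, the median over all genes was 0.01. The cause of the shift was not tested. TPM without read depth cannot show whether the amounts of the other transcripts differed. Of all tested genes, 32.7% were called higher and 1.23% were called lower with the TPM as deposited, 33.9% in all. After median-ratio scaling, which brings the median of all genes to -0.01, 6.92% were called higher and 4.25% lower, 11.2% in all, and 10.1% were called after quantile normalization and 10.2% after leaving out the 20 most abundant genes. Values under both scalings are therefore given. Shares of all tested genes at an unadjusted p under 0.05 are not given, so counts of listed genes at that threshold have no background beside them. Each such share is at least that called after adjustment, 33.9% as deposited and 11.2% after median-ratio scaling. After median-ratio scaling the log2 fold changes of Cul1, Rbx1 and Cks1b were 0.00 (95% interval -0.15 to 0.16), -0.03 (-0.25 to 0.19) and -0.05 (-0.33 to 0.23).

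The level of Skp2 relative to its partners differed between the genotypes in every mouse. In WT mice the Skp2 level was 0.0308 to 0.0763 TPM per TPM of Cul1, and in hSKP2-KI mice it was 0.992 to 1.62. Per TPM of Cks1b it was 0.0281 to 0.0718 in WT mice and 1.07 to 1.78 in hSKP2-KI mice. The TPM counted for Skp2 thus passed that of its cofactor in all 4 knock-in prostates. Since the assignment of human reads to the mouse gene is not given, these ratios may not measure the ratio of the transcripts. Skp1a, which encodes the adaptor SKP1, stayed the most abundant of these transcripts, at 221 to 249 TPM in hSKP2-KI and 166 to 197 TPM in WT mice. Its adjusted p was 0.00832 with the TPM as deposited, where the log2 fold change was 0.35, and 0.634 after median-ratio scaling, where it was 0.08. The Skp1a level per TPM of Cul1 was 5.95 to 6.91 in hSKP2-KI and 5.42 to 7.47 in WT mice, with overlap.

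**Figure D1:**
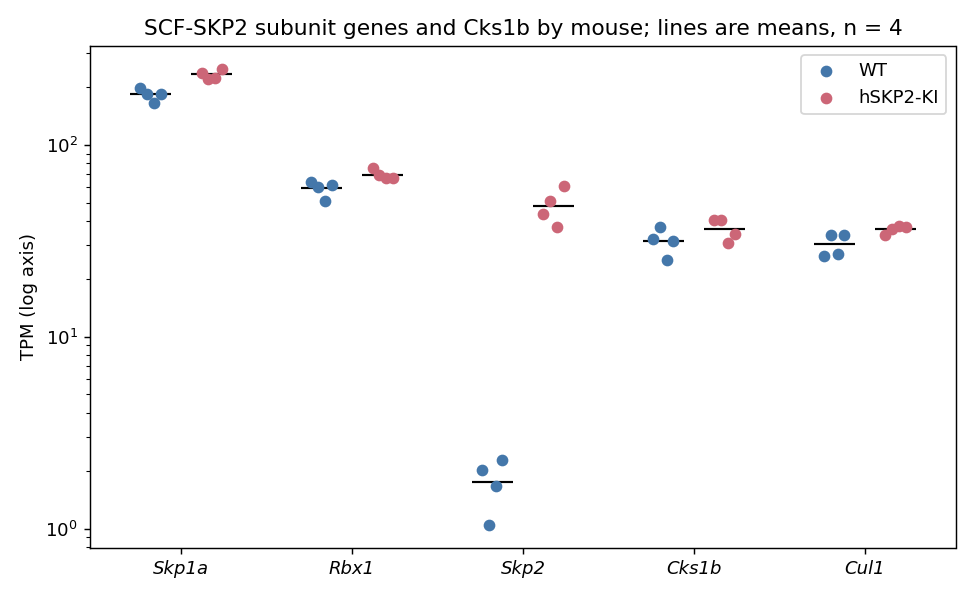
TPM (log axis) of the SCF-SKP2 subunit genes and of Cks1b in each mouse, WT in blue and hSKP2-KI in red, with the mean of 4 mice as a line. Skp2 lies at 1.05 to 2.27 TPM in WT mice and at 37.3 to 60.6 TPM in hSKP2-KI mice, where its TPM reaches the range of Cks1b and Cul1. How human reads were assigned to mouse Skp2 is not given, so its height beside the other genes may not be that of the transcripts.

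Of the 10 genes, 1 was called with the TPM as deposited, which is 10.0% against 33.9% of all tested genes, and it was Ccnd1. After median-ratio scaling 2 of the 10 were called, Ccnd1 higher and Myc lower, against 11.2% of all tested genes. The median log2 fold change of the 10 genes was 0.24 with the TPM as deposited and -0.01 after scaling, next to 0.23 and -0.01 for all tested genes. The genotypes did not overlap for 3 of the 10 with the TPM as deposited (Cul1, Rbx1 and Ccnd1) and for 2 after scaling (Ccnd1 and Myc), against 35.1% and 19.2% of all tested genes.

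**Figure D2:**
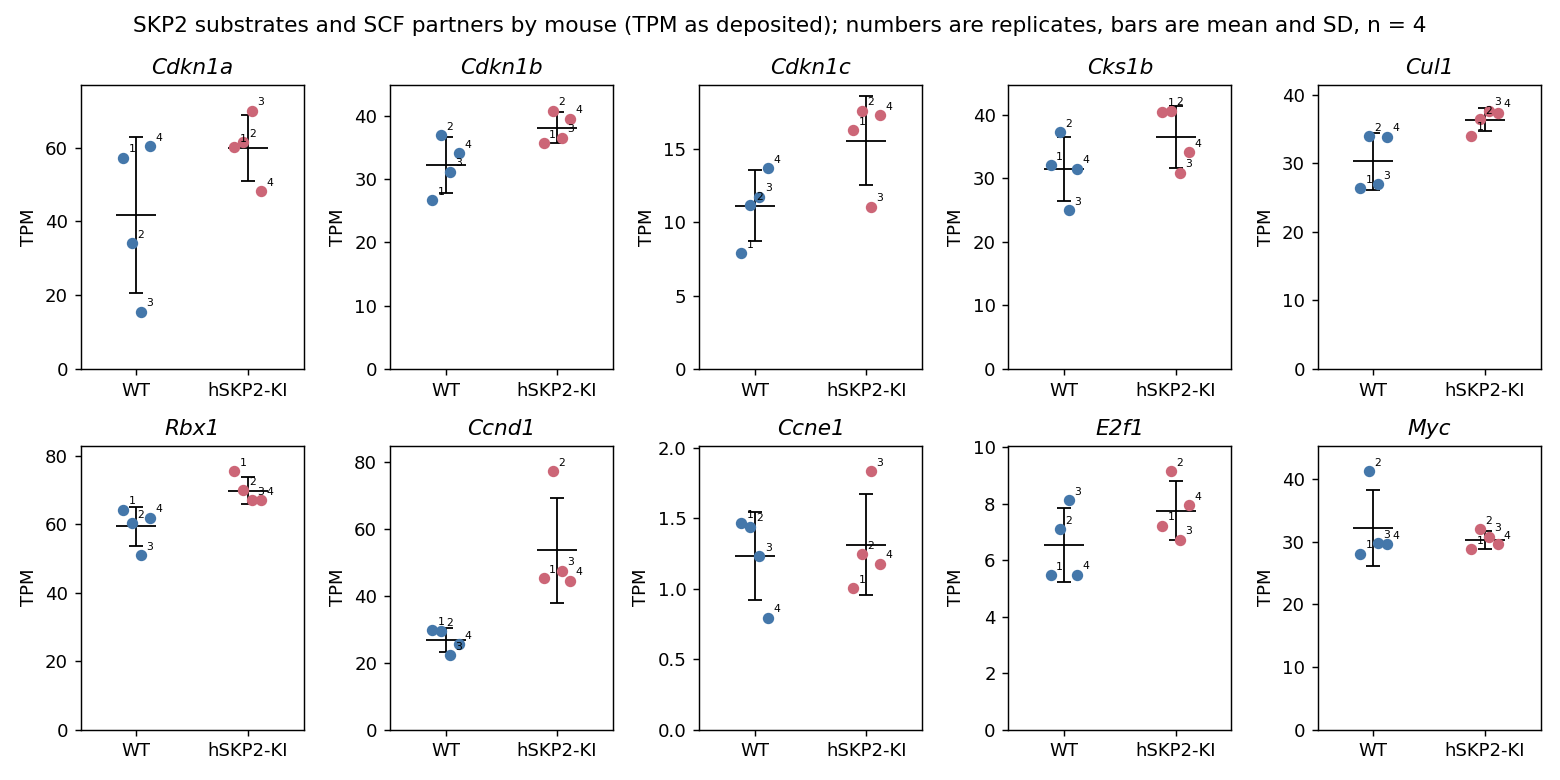
TPM as deposited of the 10 genes in each mouse (points numbered by replicate, WT in blue, hSKP2-KI in red), with the mean and SD of 4 mice per genotype, all axes from 0. Ccnd1 lies between 44.5 and 77.2 TPM in hSKP2-KI mice and between 22.2 and 29.8 TPM in WT mice, while the genotypes overlap for Cdkn1a, Cdkn1b, Cdkn1c, Cks1b, Ccne1, E2f1 and Myc.

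The CDK inhibitors of the Cip/Kip family bind cyclin-CDK complexes and hold cells in G1, and all 3 are reported substrates of SKP2. None of their transcripts passed the limma test, and 2 of the 3 had an unadjusted p under 0.05 with the TPM as deposited and 0 after scaling. Cdkn1b (chromosome 6, 134920401 to 134925525), the gene of p27, had a TPM of 35.7, 40.8, 36.6 and 39.6 in hSKP2-KI mice, against 26.6, 36.9, 31.2 and 34.1 in WT mice. The genotypes overlapped, since WT replicate 2 stood above hSKP2-KI replicates 1 and 3. Its log2 fold change was 0.25 (standard error 0.10, adjusted p = 0.0817) with the TPM as deposited. After median-ratio scaling it was -0.02 with a 95% interval of -0.17 to 0.14. The scaled levels were close together in both genotypes, with a coefficient of variation of 4.71% in hSKP2-KI and 6.37% in WT mice.

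Cdkn1a (chromosome 17, 29090979 to 29100722) encodes p21, which is also induced by p53. It had a TPM of 60.0, 61.4, 69.99 and 48.2 in hSKP2-KI mice and of 57.3, 34.0, 15.5 and 60.5 in WT mice. The WT mice spread widely, with a coefficient of variation of 50.5% against 15.0% in hSKP2-KI mice, and WT replicates 1 and 4 lay within the hSKP2-KI range. The log2 fold change was 0.67 (standard error 0.34, adjusted p = 0.137), with a 95% interval of -0.08 to 1.42. Without WT replicate 3, the lowest sample, it was 0.27 (adjusted p = 0.29). After median-ratio scaling it was 0.41 (adjusted p = 0.517).

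Cdkn1c (chromosome 7, 143458339 to 143461059) encodes p57, an imprinted member of the family. Its TPM was 16.3, 17.6, 11.1 and 17.3 in hSKP2-KI mice and 7.89, 11.2, 11.8 and 13.7 in WT mice. hSKP2-KI replicates 1, 2 and 4 were above every WT mouse and replicate 3 was within the WT range. The log2 fold change was 0.45 (standard error 0.17, adjusted p = 0.065) with the TPM as deposited, and with median-ratio scaling it was 0.20 (adjusted p = 0.448). Without hSKP2-KI replicate 3 the adjusted p with the TPM as deposited was 0.0217, and without WT replicate 4 it was 0.0464.

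Summed over Cdkn1a, Cdkn1b and Cdkn1c, the TPM was 105 to 120 in hSKP2-KI and 58.5 to 108 in WT mice, with overlap. Cdkn1a held 52.5% ± 5.65 (SD, n = 4) of this sum in hSKP2-KI and 46.5% ± 15.9 (SD, n = 4) in WT mice. Cdkn1b held 33.7% ± 2.94 and 39.7% ± 11.5, and Cdkn1c 13.8% ± 3.05 and 13.7% ± 4.77 (SD, n = 4 each). The make-up of the sum therefore overlapped between genotypes for each of the 3 genes.

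Ccnd1 (chromosome 7, 144929931 to 144939831) was the gene of the group that rose. It encodes cyclin D1, which activates CDK4 and CDK6 in early G1 in response to growth signals. Its TPM was 45.3, 77.2, 47.6 and 44.5 in hSKP2-KI replicates 1 to 4 and 29.8, 29.4, 22.2 and 25.5 in WT replicates 1 to 4. Every hSKP2-KI mouse was above every WT mouse, and hSKP2-KI replicate 2 stood well above the other knock-in mice. The log2 fold change was 0.95 (standard error 0.17, adjusted p = 0.00365, 95% interval 0.58 to 1.32), which is 1.93-fold on the scale of TPM + 1. After median-ratio scaling it was 0.69 (standard error 0.17, adjusted p = 0.0343, 95% interval 0.30 to 1.08), and the genotypes still did not overlap. Without hSKP2-KI replicate 2 the log2 fold change was 0.76 (adjusted p = 0.00302) with the TPM as deposited and 0.51 (adjusted p = 0.0389) after scaling. After scaling, the call was lost in 4 of the 8 fits that each left out 1 mouse (without WT replicate 2, 3 or 4 or hSKP2-KI replicate 3), with adjusted p-values of 0.0386 to 0.0812 over the 8.

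With the TPM as deposited, where 32.7% of all tested genes were called higher, summed markers of several cell types were also higher in hSKP2-KI mice. The summed TPM of 6 fibroblast markers was 759 to 1333 in hSKP2-KI and 420 to 605 in WT mice, and that of 5 smooth muscle markers 2747 to 4261 and 1884 to 2355. That of 4 endothelial markers was 26.6 to 47.5 and 14.9 to 21.5. The sum of 4 general epithelial genes was higher as well, at 1625 to 1821 and 1369 to 1553, without overlap. That of 3 basal genes overlapped, and that of 5 prostate luminal genes was lower. After median-ratio scaling, limma called higher 2 of the 6 fibroblast, 2 of the 5 smooth muscle, 1 of the 4 endothelial and 0 of the 4 epithelial genes. No marker of these lists was at 0 in the table. hSKP2-KI replicate 2, the mouse with the highest Ccnd1, also had the highest fibroblast and smooth muscle sums and, at 112 TPM, the highest sum of 4 leukocyte and macrophage markers, which lay at 38.9 to 49.8 in the other hSKP2-KI and at 15.5 to 41.4 in the WT mice. It did not have the highest endothelial sum, which was 36.9 TPM in this mouse and 47.5 TPM in another hSKP2-KI mouse. Among the epithelial lists, the same mouse had the highest sum of 3 basal genes, 169 TPM against at most 140 in the other hSKP2-KI mice. Its sum of 4 general epithelial genes was not the highest, at 1664 TPM against 1821 TPM in another hSKP2-KI mouse. Its sum of 5 prostate luminal genes was the lowest, at 252678 TPM. The part of these cells in the Ccnd1 result was not tested. In such bulk samples a change in the number of cells of a type and a change in their RNA per cell cannot be told apart.

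The other D-type cyclins, which also activate CDK4 and CDK6, were not called after scaling. Ccnd2 had a TPM of 36.6 to 60.8 in hSKP2-KI and 20.3 to 67.2 in WT mice, and the log2 fold change was 0.33 (standard error 0.30, adjusted p = 0.391). Ccnd3 was the most abundant D-type cyclin on average, at 96.6 to 116 TPM against 84.5 to 94.3, without overlap. Its log2 fold change was 0.24 (adjusted p = 0.0323) as deposited, and after median-ratio scaling -0.02 (adjusted p = 0.877). Ccnd1 made up 22.1% to 30.4% of the TPM of the 3 D-type cyclins in hSKP2-KI mice and 15.2% to 18.7% in WT mice, without overlap. This share was chosen after the values were seen and was not tested.

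Ccne1 (chromosome 7, 38097984 to 38107490) encodes cyclin E1, the partner of CDK2 at the G1/S transition, and was the scarcest transcript of the group. Its TPM was 1.00, 1.24, 1.83 and 1.18 in hSKP2-KI mice and 1.47, 1.44, 1.23 and 0.794 in WT mice, and the genotypes overlapped. The log2 fold change was 0.05 with a 95% interval of -0.29 to 0.39 (adjusted p = 0.805), and with median-ratio scaling it was -0.10 (adjusted p = 0.727). A TPM table holds no read counts, so the number of reads behind values near 1 is unknown.

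E2f1 (chromosome 2, 154559400 to 154569892) encodes the transcription factor that switches on S phase genes once RB is phosphorylated. Its TPM was 7.22, 9.15, 6.73 and 7.95 in hSKP2-KI mice and 5.48, 7.10, 8.13 and 5.48 in WT mice. The genotypes overlapped, and the log2 fold change was 0.22 (standard error 0.14, adjusted p = 0.211), close to the median of all genes. It was -0.01 with a 95% interval of -0.30 to 0.28 after median-ratio scaling.

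Myc (chromosome 15, 61985341 to 61990361) encodes a transcription factor of growth genes whose protein SKP2 is reported to ubiquitinate. Its TPM was 28.8, 32.0, 30.8 and 29.6 in hSKP2-KI mice and 28.1, 41.2, 29.7 and 29.6 in WT mice. As deposited, the values of the genotypes were mixed and only WT replicate 2 stood apart, and the log2 fold change was -0.07 (standard error 0.11, adjusted p = 0.643). Since most genes shifted upward, Myc stood 0.30 below the median of all genes, and 6.87% of tested genes had a lower fold change. After median-ratio scaling the TPM was 26.3 to 28.8 in hSKP2-KI and 31.3 to 41.7 in WT mice, without overlap, and the log2 fold change was -0.33 (standard error 0.09, adjusted p = 0.0445, 95% interval -0.53 to -0.13). The adjusted p was 0.0609 after quantile normalization and 0.085 after leaving out the 20 most abundant genes. With median-ratio scaling and 1 mouse left out at a time, the adjusted p ran from 0.0464 to 0.104, and the call was lost in 7 of 8 fits, all but the one without WT replicate 4.

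**Figure D3:**
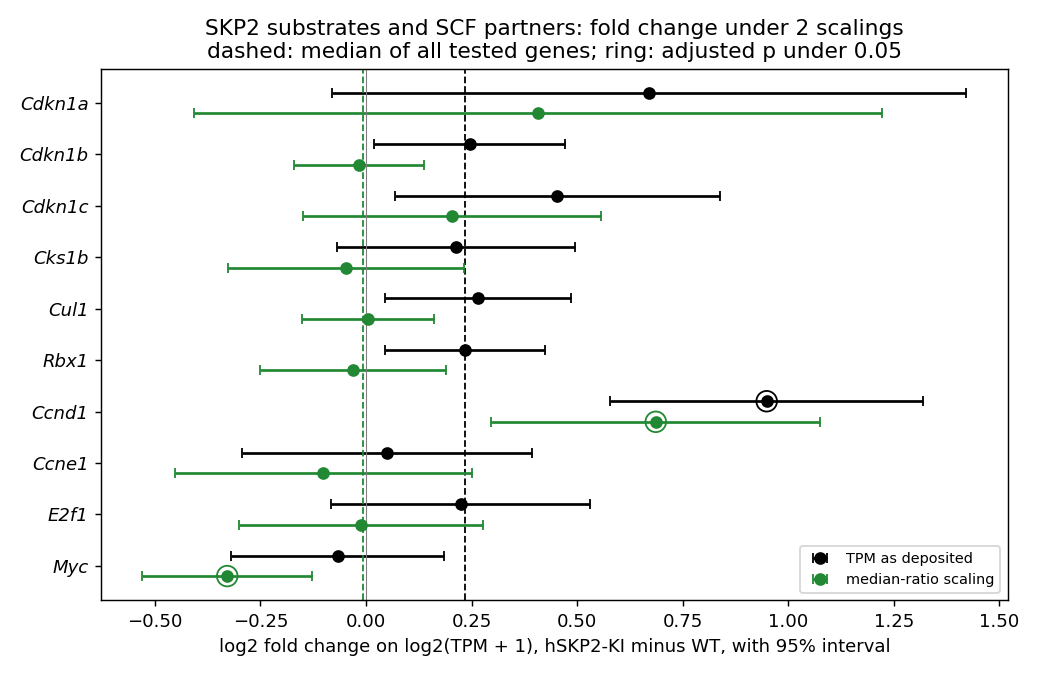
Log2 fold change (hSKP2-KI minus WT) of the 10 genes with 95% intervals from limma, for the TPM as deposited in black and after median-ratio scaling in green. Dashed lines mark the median of all tested genes, 0.23 and -0.01, rings mark an adjusted p under 0.05, and only Ccnd1 is ringed under both scalings.

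The order of the mean levels differed between the genotypes for Ccnd1, which was rank 7 of 10 in WT and rank 3 in hSKP2-KI mice. It also differed for Myc, rank 4 and rank 7, and for Cdkn1b, rank 3 and rank 4. The WT ranks of Cdkn1b, Myc, Cks1b and Cul1 were close, with means of 32.2, 32.1, 31.5 and 30.3 TPM. Each was above the next in only 2 of 4 WT mice, and Myc was raised by WT replicate 2 at 41.2 TPM. In WT mice Rbx1 was highest at 59.4 ± 5.77 TPM (SD, n = 4), then Cdkn1a, Cdkn1b, Myc, Cks1b, Cul1 and Ccnd1. Neighbours in this order from Rbx1 to Ccnd1 overlapped, while Ccnd1 lay above Cdkn1c in all 4 mice without overlap. Cdkn1c followed at 11.1 ± 2.42 TPM and E2f1 at 6.55 ± 1.30 TPM, which overlapped with each other, and Ccne1 was last at 1.23 ± 0.312 TPM. In hSKP2-KI mice Rbx1 was again highest at 69.8 ± 3.96 TPM and overlapped with Cdkn1a. Ccnd1 came next at 53.6 ± 15.8 TPM, overlapping with Cdkn1a and lying above Cdkn1b in all 4 mice without overlap. Cdkn1b, Cks1b and Cul1 overlapped in turn, and Myc followed below Cul1 in all 4 mice. Myc, Cdkn1c, E2f1 and Ccne1 came last without overlap between neighbours.

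Ratios of transcripts within a mouse do not depend on scaling, and 6 of them were compared between genotypes with a two-sided exact permutation test, whose smallest p with 4 mice against 4 is 0.0286. There were 1.12 to 1.89 TPM of Ccnd1 per TPM of Cdkn1b in hSKP2-KI mice and 0.712 to 1.12 in WT mice, higher in 4 of 4 hSKP2-KI mice, a log2 difference of 0.72 (exact permutation p = 0.0286, adjusted p = 0.171 over the 6 ratios). Ccnd1 per Ccne1 differed by 0.88 (exact permutation p = 0.0571, adjusted p = 0.171), with 3 of 4 hSKP2-KI mice above all WT mice. The log2 differences were 0.44 for Cdkn1a and 0.24 for Cdkn1c per Cdkn1b, with exact permutation p-values of 0.486 and 0.2. Leaving out 1 mouse at a time moved the Cdkn1a difference between 0.036 (without WT replicate 3) and 0.74 (without WT replicate 1), and the Cdkn1c difference between 0.17 and 0.37. For the partners, they were -0.05 for Cks1b and -0.04 for Rbx1 per Cul1, with exact permutation p-values of 0.657 and 0.686. None of the 6 passed after adjustment, and with so few mice at least 4 of the 6 would have to reach the smallest p for any to pass.

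The genes with a pattern most like Ccnd1 over the 8 mice were Rgs4, Ednra and Pcdh7, by the root mean square difference of log2(TPM + 1) after the mean of each gene was subtracted. It was 0.117 for Rgs4, 0.12 for Ednra and 0.129 for Pcdh7, the smallest among 13079 genes. All 3 had their highest value in hSKP2-KI replicate 2, at 8.01, 11.6 and 6.23 TPM. Ccnd1 itself was highest in that mouse, so the choice by likeness to Ccnd1 favours genes with this peak.

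The wider SKP2 pathway was described with 77 genes in 8 lists, of which 67 passed the filter on low values. With the TPM as deposited 18 were called higher and 1 lower, 28.4% against 33.9% of all tested genes. After median-ratio scaling 2 were called higher and 2 lower, 5.97% against 11.2%. The genes called in the same direction under both scalings were Dcun1d1, Rbl2 and E2f5.

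Among 11 other SCF and cullin neddylation genes, Dcun1d1, which encodes a cofactor for the attachment of NEDD8 to cullins, was lower. Its TPM was 6.86, 7.27, 8.49 and 7.22 in hSKP2-KI mice and 8.99, 9.76, 10.1 and 10.6 in WT mice, without overlap and against the general shift. The log2 fold change was -0.36 (standard error 0.10, adjusted p = 0.0193), and with median-ratio scaling it was -0.61 (adjusted p = 0.00398). With the TPM as deposited the call was lost without WT replicate 3 (adjusted p = 0.0524) and without WT replicate 4 (adjusted p = 0.0536). Skp1a and Ube2r2, a ubiquitin-conjugating enzyme gene of the Cdc34 kind, were called higher with the TPM as deposited and not after scaling. All 9 genes of the COP9 signalosome, which removes NEDD8 from cullins, were tested. With the TPM as deposited 5 of the 9 were called higher (55.6%, against 32.7% of all tested genes). The log2 fold changes of the list ran from 0.14 to 0.29, and their median of 0.23 was that of all tested genes. After scaling 0 were called by limma, with log2 fold changes of -0.11 to 0.04 and 0 unadjusted p-values under 0.05.

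Of 10 other reported SKP2 substrates, 8 were tested. Rbl2, which encodes the RB relative p130, rose, with a TPM of 43.1, 46.7, 54.5 and 46.2 in hSKP2-KI mice and 26.1, 36.8, 31.0 and 33.1 in WT mice, without overlap. Its log2 fold change was 0.57 (standard error 0.11, adjusted p = 0.0049), and with median-ratio scaling it was 0.31 (adjusted p = 0.0412). Foxo1 and Dusp1, a FOXO transcription factor and a phosphatase of MAP kinases, were called with the TPM as deposited, where the log2 fold change was 0.45 (adjusted p = 0.0151) for Foxo1 and 0.89 (adjusted p = 0.0099) for Dusp1. After scaling they were 0.20 (adjusted p = 0.189) and 0.64 (adjusted p = 0.0505). Both were named after their values were seen.

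Of 11 other E2F and RB genes, 9 were tested, and E2f5, a repressor E2F that works with p130, rose. Its TPM was 9.57, 8.35, 11.2 and 13.5 in hSKP2-KI mice and 5.16, 6.21, 5.08 and 5.78 in WT mice, without overlap. The log2 fold change was 0.81 (standard error 0.14, adjusted p = 0.00314), and with median-ratio scaling it was 0.58 (adjusted p = 0.0185). Rbl1 was called with the TPM as deposited and not after scaling. None of the 4 INK4 inhibitor genes, which restrain CDK4 and CDK6, was called under either scaling by limma, and 1 had an unadjusted p under 0.05 as deposited and 0 after scaling.

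Of 9 other cyclin and kinase genes 7 were tested, and Cks2 and Ccnd3 were called higher with the TPM as deposited and none after scaling by limma, where 0 had an unadjusted p under 0.05. Of 10 genes of the MYC network 8 were tested, and Max and Mxi1 were called higher with the TPM as deposited and none after scaling by limma, where 2 had an unadjusted p under 0.05. Of 13 S phase and proliferation genes 11 were tested. Pcna and Mcm3 were called higher with the TPM as deposited, and Mcm6 was called lower after scaling. Mki67, the gene of the proliferation antigen Ki67, did not pass the filter, with 0.419 to 0.782 TPM in hSKP2-KI and 0.35 to 0.972 TPM in WT mice.

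**Figure D4:**
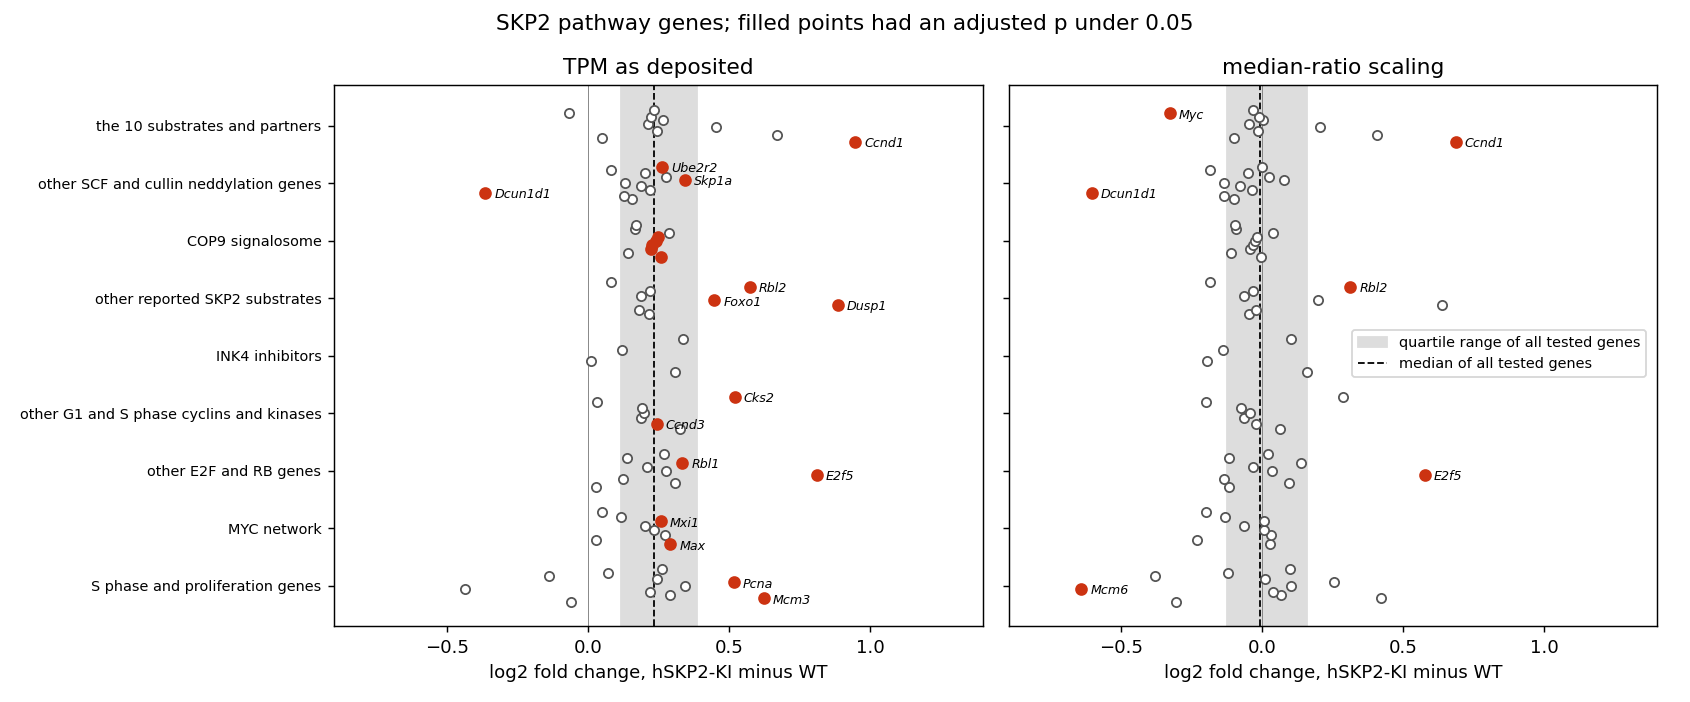
Log2 fold change (hSKP2-KI minus WT) of the 10 genes and of the tested genes of 8 pathway lists, with the TPM as deposited on the left and after median-ratio scaling on the right. Filled points had an adjusted p under 0.05 (the 5 COP9 genes are not labelled), the dashed line and grey band are the median and the quartile range of all 13080 tested genes, and 19 pathway genes are filled on the left against 4 on the right.

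Markers of the labelled tissue were present in every mouse. The summed TPM of 5 prostate luminal genes, Sbp and Spink1 included, was 252678 to 289600 in hSKP2-KI and 325662 to 377777 in WT mice. That of 4 epithelial genes was 1625 to 1821 and 1369 to 1553, and that of 3 basal genes 102 to 169 and 86.8 to 131. Of all tested genes 32.7% were called higher with the TPM as deposited and 6.92% after median-ratio scaling, with median log2 fold changes of 0.23 and -0.01. Of 4 epithelial genes, 2 were called higher as deposited and 0 after scaling by limma (0 at an unadjusted p under 0.05), and their median log2 fold change was 0.26 and -0.01. Of 6 fibroblast genes, 6 were called higher as deposited and 2 after scaling, with medians of 0.88 and 0.61. Of 5 smooth muscle genes these were 5 and 2, with medians of 0.78 and 0.51, and of 4 endothelial genes 4 and 1, with medians of 0.68 and 0.46. Of 4 leukocyte and macrophage genes, 2 were called higher as deposited and 0 after scaling by limma (1 at an unadjusted p under 0.05), with medians of 0.71 and 0.48. The lists were not tested against other genes.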

How the data were processed

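RNA of the ventral prostate was sequenced from 8 mice (4 hSKP2-KI, 4 WT), one library each. Per the paper's methods, trimmed paired-end reads were mapped with CLC software. The submitters' processing notes name mm10 and GRCm38. The annotation and counting options are not given in the sources used here. The authors deposited TPM, which sum to 1000000 in each sample, so read depth is unknown and no interval from counts can be given. The table held 0 columns of other samples.

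Tested were the 13080 genes that reached 1 TPM in 4 or more samples. log2(TPM + 1) was fitted with limma 3.58.1 (R 4.3.3) with a mean-variance trend, with Benjamini-Hochberg adjustment and a threshold of 0.05. For ratios, an exact permutation test (two-sided) over the 70 assignments was used. The procedures were tested on simulated data. Figures were drawn with matplotlib 3.10.9. Gene positions are those of RefSeq on GRCm38.p6.

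The members and lists were chosen with earlier results of these data known. Named were all members, Skp2, Pbsn, Skp1a, up to 4 genes a pathway list called the same way as deposited and after median-ratio scaling, and the 3 genes most like each member called both ways. Other pathway genes were named after their values were seen. Alternatives were a pseudocount of 0.1, median-ratio scaling, quantile normalization, no filter or one on a mean TPM of 5, a replicate block, TPM rescaled after removal of the 20 most abundant genes, leaving out each mouse and, for ratios, adding 1 to TPM. Median-ratio scaling combined with leaving out each mouse was added after seeing the data, with scaling factors from all 8 mice.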

Additional observations from a re-analysis of the deposited data

Results flagged for a closer look

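In 3 of 32 groups of 4 mice examined (16 genes in 2 genotypes), one mouse lay far from the other 3 by Dixon's criterion, which chance gives in about 1 group in 20. Ccnd1 in hSKP2-KI replicate 2 was 77.2 TPM, against 44.5 to 47.6 in the other hSKP2-KI mice. Myc in WT replicate 2 was 41.2 TPM, against 28.1 to 29.7 in the other WT mice, and without it the log2 fold change of Myc as deposited was 0.05. Pbsn in hSKP2-KI replicate 4 was 174 TPM, against 93.0 to 97.8 in the other hSKP2-KI mice, and the same mouse had the highest Skp2, 60.6 TPM.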

How the results depend on the processing

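The TPM table carries no depth, and 4 mice per genotype limit the precision. With the TPM as deposited 1 of the 10 genes was called. The count was 2 after median-ratio scaling (Myc added) and 1 to 3 with each mouse left out, where Cdkn1b, Cul1 or Cdkn1c joined Ccnd1: it was 3 without WT replicate 2 and 3 without WT replicate 4, and 2 without hSKP2-KI replicate 3. After median-ratio scaling the 2 calls became 0 to 1 with each mouse left out. Of the pathway genes 19 were called, against 4 after median-ratio scaling, 4 after quantile normalization, 3 without the 20 most abundant genes and 7 (without WT replicate 3) to 26 (without WT replicate 2) with each mouse left out. Without the most abundant genes the adjusted p of Rbl2 was 0.0739. Skp2, Pbsn and Ccnd1 remained called under each alternative that changed a single choice. The cause of these changes was not tested.

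Some genes that were not called changed sign with scaling. After median-ratio scaling the log2 fold changes were -0.017 for Cdkn1b, -0.048 for Cks1b, -0.031 for Rbx1, -0.10 for Ccne1 and -0.012 for E2f1. After quantile normalization they were -0.023 for Cks1b, -0.23 for Ccne1 and -0.069 for E2f1, and without the 20 most abundant genes -0.028 for Cks1b, -0.010 for Rbx1 and -0.11 for Ccne1. With each mouse left out, Ccne1 ran from -0.051 to 0.12, Myc from -0.12 to 0.054, and the log2 differences of Cks1b and Rbx1 per Cul1 from -0.14 to 0.041 and from -0.11 to 0.067.

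The main fit did not treat mice of the same replicate number as paired. Their correlations around the genotype means were 0.22, -0.11, 0.17 and -0.01 across genes, which cannot show whether the mice were paired. With the replicate block 4 of the 10 genes were called higher, Cdkn1b, Cul1 and Rbx1 being added to Ccnd1. Of all tested genes 39.2% were called with the block, against 33.9% without it.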

Other observations

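The MCM2-7 helicase that licenses replication origins is built from 6 different subunits, and its transcripts had fold changes of either sign. For Mcm3 it was 0.62 on the log2 scale (adjusted p = 0.031) as deposited and 0.42 (adjusted p = 0.186) once scaled by median ratio, and for Mcm6 -0.44 (adjusted p = 0.0583) and -0.64 (adjusted p = 0.0317). Among the others, Mcm2 was at -0.06 and -0.31 (adjusted p = 0.669 and 0.0796), Mcm4 at 0.29 and 0.06, Mcm5 at 0.22 and 0.04 and Mcm7 at 0.35 and 0.10, and none of these 4 was called under either scaling. By limma, 1 of the 4 had an unadjusted p under 0.05 as deposited (Mcm7) and 1 after scaling (Mcm2). Mcm3 had a TPM of 3.46, 5.37, 4.21 and 3.55 in hSKP2-KI mice and 2.46, 3.47, 2.29 and 1.34 in WT mice. Mcm6 had a TPM of 2.43, 3.63, 2.30 and 2.56 in hSKP2-KI mice and 3.98, 4.80, 4.65 and 2.82 in WT mice. Each of the pair overlapped between genotypes. There were 1.38 to 1.83 TPM of Mcm3 per TPM of Mcm6 in hSKP2-KI mice and 0.476 to 0.722 in WT mice, a ratio that does not depend on scaling. The pair was chosen after the values were seen, and the ratio was not tested.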
